A study of Sus scrofa with 13 samples.

Results

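The Mediator genes of pig loin muscle were followed over 2 breeds and 2 loin weight groups. A gene was taken as a member where its symbol, in the authors' tables or in a reference table of Ensembl names, was MED with a number (with or without a final L), CDK8, CDK19 or CCNC. Of 25322 gene identifiers in the count tables, 30 were members, 25 of them by the authors' symbols and 5 (MED23, MED13L, MED12L, MED26 and MED24) by the reference table alone. CDK19, MED20 and MED22 matched no identifier and were not analysed here.

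Mediator is the large protein complex that carries signals from DNA-bound transcription factors to RNA polymerase II. Its tail and parts of its middle contact the transcription factors, its head contacts the polymerase, and MED14 is the backbone that joins them. A separable kinase module, made of the kinase CDK8 or CDK19, cyclin C (CCNC), MED12 or MED12L and MED13 or MED13L, docks on this core through MED13 and regulates its contact with the polymerase. In heart muscle, MED13 is known for a control of energy metabolism that involves nuclear receptors.

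The samples were longissimus lumborum muscle from 13 female pigs aged 6 months, taken after slaughter, with 1 RNA-seq library a pig. The groups were Hampshire pigs with low weight of loin (3 pigs) and with high weight of loin (3 pigs), and Pietrain pigs with low (3 pigs) and high weight of loin (4 pigs). Each pig is named here by its group and the number in its label. The study asked which transcripts differ with loin weight within each sire breed, and the same counts also allow the breeds to be compared.

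The counted reads per pig ranged from 11312755 to 20134612, and the 10 most abundant genes held between 26.4% and 37.7% of them. The summed level of the myofibre markers was at least 78647 CPM in each pig. CPM are counts scaled to the size of the library, here with TMM factors over all 13 pigs. They are not set for the length of a transcript, so they were compared between pigs and not between genes. Unless another test is named, log2 fold changes carry a standard error (SE) and an adjusted p-value from edgeR's quasi-likelihood test, adjusted over all genes tested by the method of Benjamini and Hochberg. A gene counted as called where the adjusted p was under 0.05 and the groups differed at least 1.2-fold. By the study's methods the pigs were unrelated, shared housing and feed, and were picked from a larger population for extreme loin weight. The p-values set a difference between groups against the spread between these chosen pigs.

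MED13 fell in Hampshire pigs with high weight of loin, and with it fell its paralog MED13L, MED23 of the tail and MED1 of the middle module. The remaining tested kinase module genes, MED12, CDK8 and CCNC, did not pass the test there. In Pietrain pigs 0 Mediator genes passed. The difference between the breeds in the effect of loin weight passed the test for those 4 genes, with MED13 taken as the gene model that bears its symbol. It was not called for a neighbouring model under which the study listed MED13 (adjusted p = 0.342), nor for both models summed (adjusted p = 0.114).

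MED13 carries the identifier ENSSSCG00000017672, at chromosome 12 from 37666521 to 37736693 on Sscrofa10.2, a gene model that spans 70173 bases with 2 transcripts. In Hampshire pigs with low weight of loin, its level was 18.2 CPM in pig 1, 12.7 CPM in pig 2 and 13.1 CPM in pig 3. In Hampshire pigs with high weight of loin, it was 2.79 CPM in pig 8, 3.27 CPM in pig 9 and 1.60 CPM in pig 10, resting on 41, 36 and 25 reads. These 3 pigs were the lowest of all 13 and overlapped no other group. The log2 fold change of MED13 between the Hampshire groups was -2.54 (SE 0.294, adjusted p = 0.00194). Fewer cells that express the gene and less RNA per cell cannot be told apart in bulk muscle.

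In Pietrain pigs with low weight of loin, MED13 was at 28.9 CPM in pig 3, 22.0 CPM in pig 5 and 28.5 CPM in pig 8. In Pietrain pigs with high weight of loin, it was at 27.6 CPM in pig 1, 21.8 CPM in pig 2, 18.6 CPM in pig 6 and 14.3 CPM in pig 7. The Pietrain groups overlapped, and the log2 fold change between them was -0.34 (SE 0.242, adjusted p = 0.939). Ordered by mean, MED13 ran from Hampshire high (2.55 ± 0.862 CPM, SD, n = 3) to Hampshire low (14.7 ± 3.06 CPM, SD, n = 3), Pietrain high (20.6 ± 5.62 CPM, SD, n = 4) and Pietrain low (26.5 ± 3.87 CPM, SD, n = 3). Neighbours in that order overlapped between Hampshire low and Pietrain high and between the Pietrain groups.

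The exact permutation test on log2 CPM, two-sided, cannot go below 0.1 with 3 pigs against 3 or below 0.0571 with 4 against 3. MED13 reached that smallest value in Hampshire (exact permutation p = 0.1) and not in Pietrain (exact permutation p = 0.114). MED13L and CDK8 reached it in Hampshire too. It means only that the groups did not overlap, as in 22.4% of all genes that were higher and 23.5% that were lower in Hampshire.

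**Figure D1:**
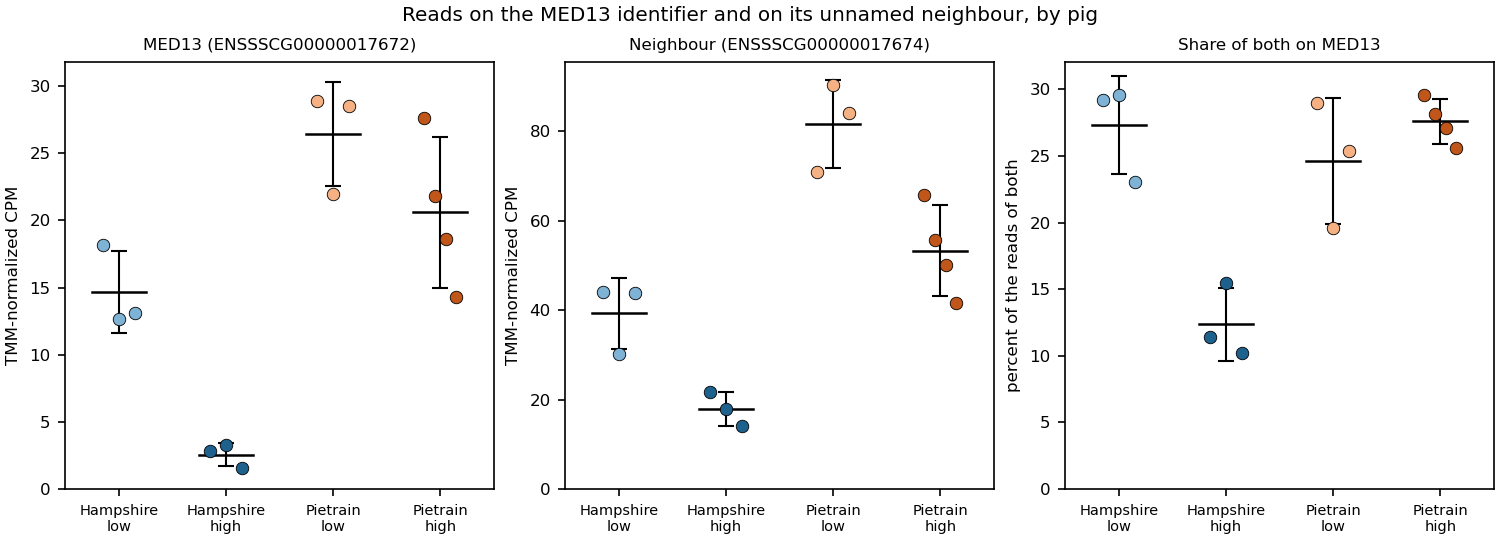
TMM-normalized CPM of MED13 and of the unnamed gene model beside it, and the percent of the reads of both that fell on MED13, for each pig (points) in the 4 groups of breed and loin weight, with the group mean (line) and SD (bars), each axis starting at 0. The 3 Hampshire pigs with high weight of loin lie lowest in all 3 panels, between 1.60 and 3.27 CPM for MED13.

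A second identifier bears on MED13. ENSSSCG00000017674 lies 4610 bases past the end of the MED13 model on the same chromosome, from 37741304 to 37752979, and ends 4037 bases before INTS2, a subunit of the Integrator complex. It has no symbol in the tables used here. It is the identifier under which the study listed MED13, as lower with higher loin weight in both breeds. Whether its reads belong to MED13 transcripts was not tested, so it is given beside MED13 and is not counted as a member.

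The neighbouring model was at 44.0, 30.2 and 43.7 CPM in Hampshire low pigs 1, 2 and 3, and at 21.7, 17.9 and 14.1 CPM in Hampshire high pigs 8, 9 and 10. It fell there with a log2 fold change of -1.14 (SE 0.218, adjusted p = 0.00815). In Pietrain, it was at 71.0, 90.2 and 84.0 CPM in low pigs 3, 5 and 8 and at 65.8, 55.7, 50.2 and 41.5 CPM in high pigs 1, 2, 6 and 7. The Pietrain groups did not overlap at this model, which is the smallest exact permutation p this design allows (0.0571), but the log2 fold change of -0.58 (SE 0.192) was not called, with an adjusted p of 0.939. The study's Pietrain call for this identifier was thus not met here, and the reason was not tested.

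MED13 and its neighbour differed in how far they moved. Of the reads on both models, MED13 held 11.4% (95% Wilson interval 8.53 to 15.1%), 15.5% (11.4 to 20.6%) and 10.2% (7.01 to 14.6%) in Hampshire high pigs 8, 9 and 10. In the other 10 pigs its share lay between 19.6% and 29.6%, above that of each Hampshire high pig. These intervals cover counting error only. The difference between the breeds in the loin weight effect was called for MED13 but not for its neighbour, whose log2 difference was -0.52 (SE 0.304, adjusted p = 0.342). Summed as 1 gene, a step added after the data were seen, both models gave a value of -1.41 on the log2 scale for Hampshire (adjusted p = 0.00398) and a difference between the breeds of -0.85 that was not called (adjusted p = 0.114).

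MED13L, the paralog that can take the place of MED13 in the kinase module, followed the same order of groups in Hampshire. It was at 5.82, 5.06 and 6.10 CPM in Hampshire low pigs 1, 2 and 3, and at 1.50, 1.09 and 1.98 CPM in Hampshire high pigs 8, 9 and 10. No pig of one group reached the other, and MED13L fell with a log2 fold change of -1.87 (SE 0.297, adjusted p = 0.00470). In Pietrain it was at 9.77, 5.94 and 8.07 CPM in low pigs 3, 5 and 8 and at 8.97, 8.18, 9.09 and 5.65 CPM in high pigs 1, 2, 6 and 7. Those groups lay over each other, with a log2 fold change of 0.03 (SE 0.269, adjusted p = 0.989).

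MED12, which activates the kinase, was at 25.8, 33.1 and 32.1 CPM in Hampshire low pigs 1, 2 and 3 and at 23.5, 21.8 and 28.1 CPM in Hampshire high pigs 8, 9 and 10. High pig 10 lay above low pig 1, and the log2 fold change of -0.31 (SE 0.176) had an adjusted p of 0.219. In Pietrain, MED12 was at 27.8, 21.2 and 22.3 CPM in low pigs 3, 5 and 8 and at 30.5, 26.3, 22.5 and 34.6 CPM in high pigs 1, 2, 6 and 7, a log2 fold change of 0.29 (SE 0.217, adjusted p = 0.939). The levels of MED12 overlapped between the groups in both breeds. Its paralog MED12L had 0 reads in all 6 Hampshire pigs and at most 2 reads in any Pietrain pig, 3 in each Pietrain group, so it was not tested. A count of 0 allows a level of up to between 0.146 and 0.273 CPM in a Hampshire pig, taking 3 reads as the limit.

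CDK8, the kinase itself, was counted in few reads, from 9 to 38 a pig. It was at 1.78, 1.31 and 0.841 CPM in Hampshire low pigs 1, 2 and 3 and at 0.681, 0.818 and 0.640 CPM in Hampshire high pigs 8, 9 and 10. The groups did not overlap, yet low pig 3 and high pig 9 lay close together, and the log2 fold change of -0.89 (SE 0.413) had an adjusted p of 0.137. In Pietrain, CDK8 was at 2.96, 2.37 and 1.95 CPM in low pigs 3, 5 and 8 and at 1.66, 2.10, 2.47 and 1.65 CPM in high pigs 1, 2, 6 and 7, with a log2 fold change of -0.27 (SE 0.350, adjusted p = 0.940).

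CCNC, the cyclin partner of the kinase, was at 17.5, 13.5 and 18.6 CPM in Hampshire low pigs 1, 2 and 3 and at 14.0, 14.5 and 9.85 CPM in Hampshire high pigs 8, 9 and 10. Low pig 2 lay below high pigs 8 and 9, and the log2 fold change of -0.38 (SE 0.210) had an adjusted p of 0.203. In Pietrain, CCNC was at 24.7, 30.4 and 25.9 CPM in low pigs 3, 5 and 8 and at 20.2, 22.0, 27.7 and 17.2 CPM in high pigs 1, 2, 6 and 7. Its log2 fold change there was -0.28 (SE 0.203, adjusted p = 0.939), with high pig 6 inside the range of the low group.

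The ratio of MED13 reads to CCNC reads within a pig set the module's partners side by side without a scaling between pigs. It was 0.200, 0.226 and 0.162 in Hampshire high pigs 8, 9 and 10 and lay between 0.674 and 1.37 in the other 10 pigs. Against MED12 the ratio was between 0.0568 and 0.150 in Hampshire high pigs and between 0.383 and 1.28 elsewhere. Against MED13L it was 1.86, 3.00 and 0.806 in Hampshire high pigs 8, 9 and 10 and between 2.05 and 3.71 elsewhere, so pig 9 lay inside the range of the other groups. MED13 was therefore low against CCNC and MED12 in each Hampshire high pig, and against its paralog in only 2 of them.

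**Figure D2:**
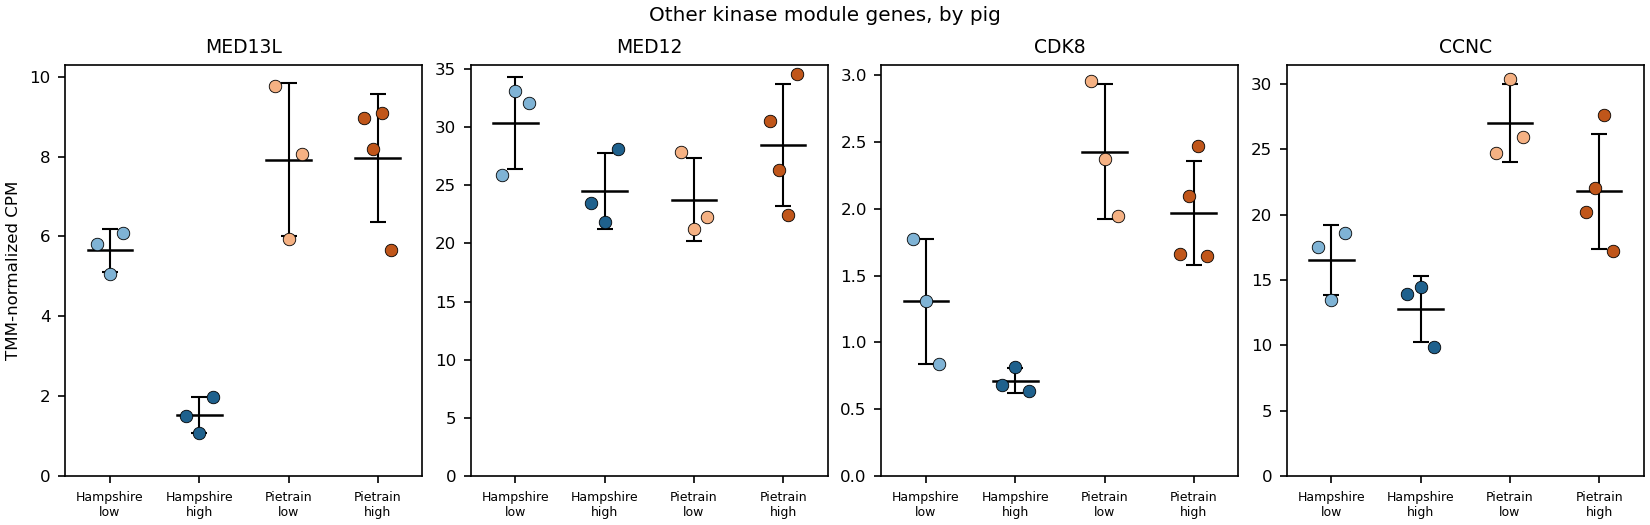
TMM-normalized CPM of the other tested kinase module genes, MED13L, MED12, CDK8 and CCNC, for each pig (points) in the 4 groups of breed and loin weight, with the group mean (line) and SD (bars), each axis starting at 0. MED13L lies between 1.09 and 1.98 CPM in the 3 Hampshire pigs with high weight of loin and above 5 CPM in the other pigs, while the Hampshire groups of MED12 and CCNC overlap.

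Over the whole complex, 29 of the 30 members passed the filter on low counts in each comparison, MED12L being the exception. In Hampshire, 3 of the 29 rose and 4 fell, where 12.0% of all 12228 genes tested were called higher and 14.6% lower (26.6% together). The number of members called is thus near the background of this comparison. The median log2 fold change of the members was 0.24, against 0.03 over all genes, and 17 members lay above 0 and 12 below. The groups did not overlap for 9 members that were higher and 6 that were lower in the high group, where the background was 22.4% and 23.5% of all genes.

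By module, the 5 tested kinase genes all had a log2 fold change below 0 in Hampshire, with a median of -0.89 and 2 called. The 24 other members had a median of 0.33, with 17 above 0 and 7 below, where 48.4% of all genes lay below 0. The 5 kinase models span from 19891 (MED13L) to 70817 bases (CDK8). The 12 members spanning under 15000 bases all lie outside this module, so module and length were not told apart. The 5 head genes ranged from -0.05 (MED6) to 0.51 (MED8), and 0 of them were called, with 1 at an unadjusted p under 0.05. Over the complex, 12 of 29 members had such a p, beside 41.2% of all 12228 genes, so the members were near the background.

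In the middle module, MED1 fell. MED1 is the subunit that binds nuclear receptors such as those for thyroid hormone and PPAR ligands. It was at 35.8, 22.7 and 28.4 CPM in Hampshire low pigs 1, 2 and 3 and at 11.4, 8.91 and 10.5 CPM in Hampshire high pigs 8, 9 and 10, a log2 fold change of -1.50 (SE 0.217, adjusted p = 0.00344). No low pig came near the high pigs, in which MED1 rested on 98 to 168 reads. In Pietrain, MED1 lay between 35.1 and 46.2 CPM in the low group and between 34.8 and 41.7 CPM in the high group, with a log2 fold change of -0.04 (SE 0.180, adjusted p = 0.979). The other 8 middle genes had Hampshire log2 fold changes from -0.20 (MED4) to 0.66 (MED26), and 0 of them were called. MED21, MED26 and MED31 had an unadjusted p under 0.05, at log2 fold changes of 0.57, 0.66 and 0.47, as had 41.2% of all genes.

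In the tail, MED23 fell and MED15 rose. MED23 is the subunit through which the factor ELK1 acts. It was at 6.49, 8.41 and 6.31 CPM in Hampshire low pigs 1, 2 and 3 and at 2.04, 1.82 and 1.92 CPM in Hampshire high pigs 8, 9 and 10. The high pigs lay within a narrow range well below the low pigs, and the log2 fold change was -1.87 (SE 0.246, adjusted p = 0.00255). In Pietrain, MED23 lay between 7.39 and 10.7 CPM in the low group and between 6.80 and 14.7 CPM in the high group, a log2 fold change of 0.20 (SE 0.293, adjusted p = 0.943).

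MED15, the subunit through which SREBP factors of lipid synthesis act, was at 16.5, 18.9 and 20.4 CPM in Hampshire low pigs and at 24.4, 33.5 and 30.8 CPM in Hampshire high pigs. Its log2 fold change of 0.67 (SE 0.181) had an adjusted p of 0.0273, and the groups did not overlap. The call was lost, with adjusted p-values up to 0.0911, in 5 of the 6 fits that left out 1 Hampshire pig (high pig 9 or 10, or low pig 1, 2 or 3).

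At the boundary of head and tail, MED29 and MED30 rose. MED29 was at 6.49, 8.55 and 7.22 CPM in Hampshire low pigs and at 13.1, 17.8 and 12.7 CPM in Hampshire high pigs, with no overlap and a log2 fold change of 0.96 (SE 0.204, adjusted p = 0.0120). Without low pig 3 the adjusted p of MED29 was 0.0565. MED30 was at 3.12, 2.77 and 1.89 CPM in low pigs and at 5.79, 4.09 and 4.60 CPM in high pigs, a log2 fold change of 0.89 (SE 0.288, adjusted p = 0.0499). MED30 lost its call whichever of the 6 pigs was left out, with adjusted p-values from 0.0646 to 0.162.

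Other measures moved with loin weight in the Hampshire pigs. The summed level of 4 fibroblast markers was 669 to 1485 CPM in the low pigs and 1783 to 4589 CPM in the high pigs, and 3 of the 4 genes were called higher. The summed level of 4 macrophage markers was 16.2 to 22.0 CPM in the low pigs and 27.1 to 53.5 CPM in the high pigs, with 2 of 4 called higher. For 2 adipocyte markers the sums were 1.61 to 5.20 CPM and 6.74 to 29.0 CPM, with 1 of 2 called higher, and no marker of these 3 lists was at 0 in either group. Of 6 myofibre genes 2 were called higher and 1 lower, and 0 genes of the endothelial, blood, satellite cell and nerve lists were called. The part of these cells in the changes of MED13, MED13L, MED1, MED23, MED15, MED29 and MED30 was not tested.

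In Pietrain, 0 of the 29 tested members were called, and 0% of all 12065 genes tested were. Also 0 members had an unadjusted p under 0.05, against 398 genes of the whole table, and DESeq2 called 0 members and 1 gene. The study's own analysis reported many genes as differing in this breed, and the reason for this difference was not tested. The members ran from -0.50 (MED26) to 0.66 (MED16) on the log2 scale, with a median of -0.03 against 0.02 over all genes. After MED16, the highest were MED25 (0.62, SE 0.357) and MED15 (0.37, SE 0.284), all of the tail module. After MED26, the lowest were MED4 (-0.36, SE 0.184) and MED13.

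The 5 tail genes all had Pietrain values above 0, where 47.6% of all genes lay below 0, but none was called. MED26, a middle subunit that recruits elongation factors, was the only member whose Pietrain groups did not overlap, at 7.04 to 7.33 CPM in the low pigs and 3.62 to 6.65 CPM in the high pigs. The background for such a lower, non-overlapping gene in this comparison was 2.51% of all genes, and for a higher one, of which there was 0 among the members, it was 2.08%.

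**Figure D3:**
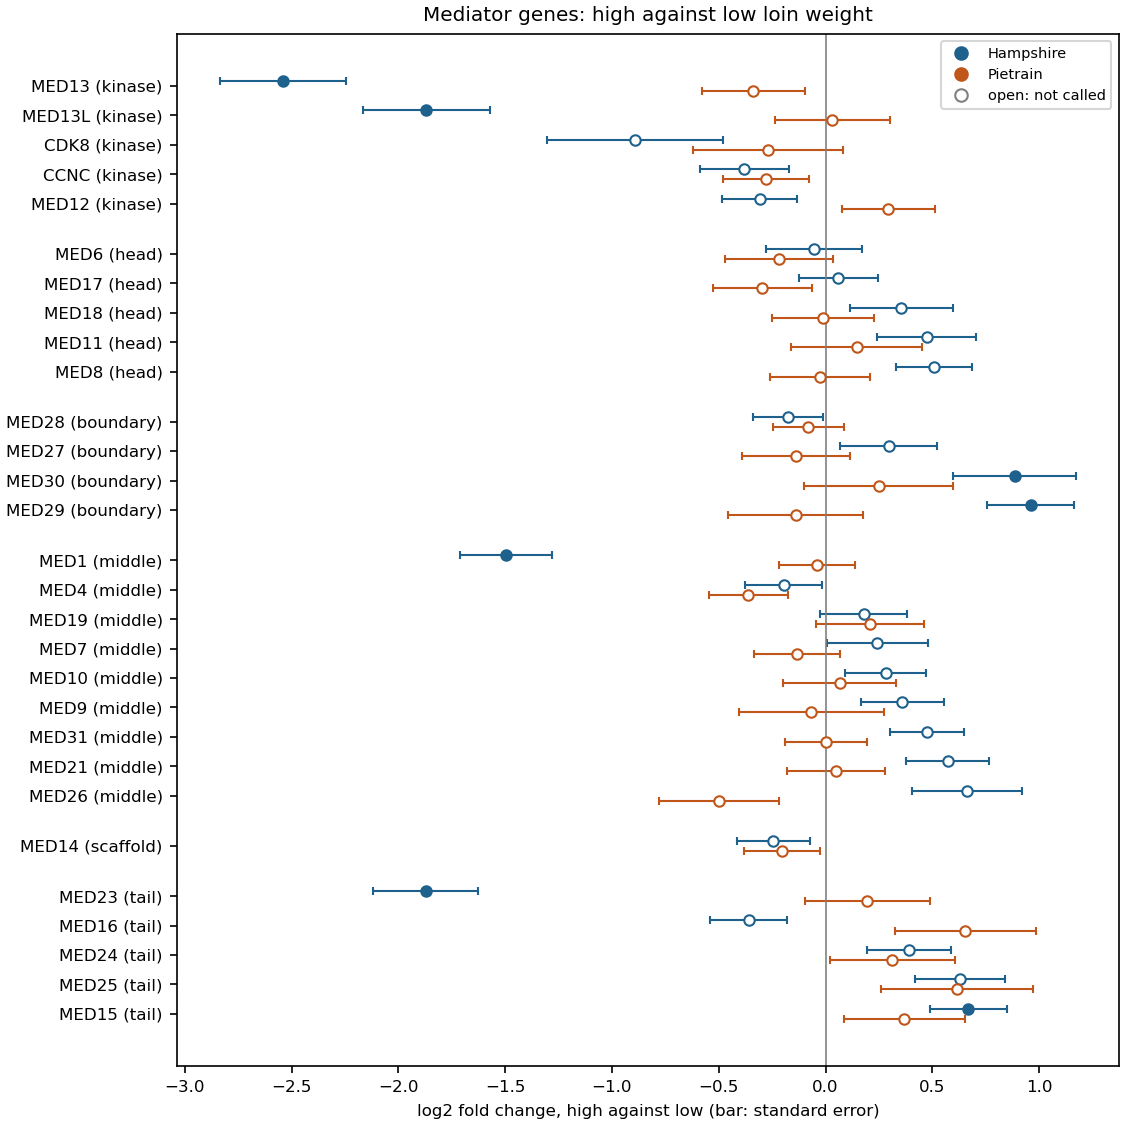
Log2 fold change (high against low weight of loin, with SE as bars) of each of the 29 tested Mediator genes, grouped by module, in Hampshire (blue) and Pietrain (orange) pigs, with filled points where a gene was called. MED13 (-2.54), MED13L, MED23 and MED1 lie far to the left in Hampshire alone, and all Pietrain points are open, between -0.50 and 0.66.

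The difference between the breeds in the loin weight effect was tested in 1 fit over all 13 pigs, as the Hampshire effect minus the Pietrain effect. Of the 29 members, 4 were called lower and 0 higher, where 4.22% of all 12831 genes were called lower and 1.68% higher (5.90% together). The log2 difference was -2.17 for MED13 (SE 0.394, adjusted p = 0.00793), -2.04 for MED23 (SE 0.399, adjusted p = 0.0110), -1.88 for MED13L (SE 0.388, adjusted p = 0.0139) and -1.42 for MED1 (SE 0.271, adjusted p = 0.00998). At an unadjusted p under 0.05 there were 7 of 29 members, beside 22.1% of all genes. The 4 genes kept their call in each of the 13 fits that left out 1 pig.

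MED12, CDK8 and CCNC had log2 differences of -0.57 (SE 0.274), -0.58 (SE 0.508) and -0.06 (SE 0.299), with adjusted p-values of 0.240, 0.542 and 0.932. The highest values were those of MED26 (1.2, SE 0.379, adjusted p = 0.0794), MED29 (1.14, SE 0.380, adjusted p = 0.0950) and MED30 (0.68, SE 0.452, adjusted p = 0.412). The median over the members was 0.21, against -0.02 over all genes, while the 24 members outside the kinase module had a median of 0.35 and the 5 kinase genes one of -0.58.

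The breeds were then compared at the same loin weight. Breed cannot be told apart from any difference in sampling or sequencing between the breeds, and each of these comparisons shares its pigs with those above, so the values stand side by side. Among pigs with low weight of loin, 4 of 29 members were higher and 2 lower in Pietrain than in Hampshire, beside 10.1% and 7.84% of all genes (17.9% together). The breeds did not overlap for 6 higher and 5 lower members, beside 21.4% and 21.4% of all genes.

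The 4 higher members in Pietrain low pigs were MED4 of the middle module (log2 fold change 0.89, SE 0.196, adjusted p = 0.0151), MED13 (0.85, SE 0.273, adjusted p = 0.0447), CCNC (0.71, SE 0.218, adjusted p = 0.0388) and MED14, the backbone (0.62, SE 0.169, adjusted p = 0.0270). MED4 was at 49.7, 44.3 and 61.5 CPM in Hampshire and at 82.0, 117 and 88.5 CPM in Pietrain low pigs, and MED14 between 25.7 and 28.3 CPM and between 41.1 and 42.5 CPM. Neither gene overlapped between the breeds, and the spread of MED14 within Pietrain was narrow. CDK8 had a value of 0.88 (SE 0.361) that was not called (adjusted p = 0.0994).

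The 2 lower members were MED25 (-1.07, SE 0.314, adjusted p = 0.0339), a tail subunit bound by several activators, and MED16 (-1.02, SE 0.291, adjusted p = 0.0311), also of the tail. MED25 was at 10.8 to 11.6 CPM in Hampshire and 3.40 to 6.73 CPM in Pietrain, and MED16 at 12.7 to 16.0 CPM and 5.92 to 9.53 CPM. MED15 had the next lowest value (-0.68, SE 0.258, adjusted p = 0.0779). Leaving out 1 pig moved the calls among low loin weight pigs over the whole table. Without Hampshire low pig 2, Pietrain low pig 5 or Pietrain low pig 8, 0 members were called, and the genes called in all went from 2300 to 109, 163 and 111. Without Hampshire low pig 3, 1 member and 501 genes were called. MED13 lost its call in 9 of the 13 fits that left out 1 pig (Hampshire high pig 8 or 9, Hampshire low pig 2 or 3, Pietrain high pig 1 or 2, or any Pietrain low pig), with adjusted p up to 0.178. CCNC lost it in 8 (Hampshire high pig 8, any Hampshire low pig, Pietrain high pig 1 or 2, Pietrain low pig 5 or 8), up to 0.172. MED4, MED14, MED16 and MED25 lost it in 3, 4, 4 and 5 fits, each time without a Hampshire low pig or without Pietrain low pig 5 or 8.

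Among pigs with high weight of loin, 9 members were higher and 8 lower in Pietrain, beside 24.2% and 22.6% of all 12831 genes (46.8% together), so that a large share of the whole table differed too. For 9 higher and 10 lower members the breeds did not overlap, beside 24.6% and 24.0% of all genes. MED13 had the largest value of all members, 3.02 (SE 0.298, adjusted p = 1.02e-05). MED23 followed with 2.42 (SE 0.294, adjusted p = 3.98e-05), MED13L with 2.36 (SE 0.286, adjusted p = 3.85e-05) and MED1 with 1.87 (SE 0.195, adjusted p = 1.47e-05). The same low Hampshire levels enter here as in the comparison of the Hampshire groups.

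CDK8 was higher by 1.46 (SE 0.366, adjusted p = 0.00522) and CCNC by 0.77 (SE 0.209, adjusted p = 0.00810) in the Pietrain high pigs, whose levels of both lay above those of each Hampshire high pig. MED12 had a value of 0.22 (SE 0.187) that was not called (adjusted p = 0.357). MED4 (0.68, SE 0.186, adjusted p = 0.00862) and MED14 (0.63, SE 0.160, adjusted p = 0.00556) were higher here as well as among the low pigs. MED28, of the boundary of head and tail, completed the 9 with 0.44 (SE 0.156, adjusted p = 0.0333).

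The 8 lower members in Pietrain high pigs came from the boundary (MED29 and MED27), the tail (MED25 and MED15), the middle (MED9 and MED26) and the head (MED11 and MED8). Their log2 fold changes ran from -1.32 for MED29 (SE 0.257, adjusted p = 0.00106) and -1.14 for MED27 (SE 0.224, adjusted p = 0.00115) to -0.78 for MED8 (SE 0.207, adjusted p = 0.00749). MED29 was at 13.1, 17.8 and 12.7 CPM in Hampshire high pigs and at 6.30, 5.59, 3.51 and 7.80 CPM in Pietrain high pigs, with no overlap. MED25 kept a lower level in Pietrain at both loin weights, at -1.11 (SE 0.283, adjusted p = 0.00591) among the high pigs. Leaving out Hampshire high pig 9 ended the calls of MED8, MED9, MED11, MED26 and MED28, and leaving out Hampshire high pig 10 those of MED11, MED25 and MED28. MED11 also lost its call without Hampshire high pig 8, and MED11 and MED28 without Pietrain high pig 2, with adjusted p-values of at most 0.108 in all these fits.

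The macrophage marker sum was also lower in Pietrain, at 5.22 to 15.4 CPM over both loin weight groups against 16.2 to 53.5 CPM in Hampshire, with 2 of 4 genes called lower among low pigs and 4 of 4 among high pigs. Among high pigs, 3 of 4 fibroblast genes were also lower in Pietrain (median log2 fold change -1.17), and 1 myofibre gene was higher and 2 were lower of 6. MYF5, the only satellite cell gene matched, was called lower at both loin weights (-3.18 among low and -1.53 among high pigs), at levels near the floor. Among low pigs it was at 0 to 0.317 CPM in Pietrain and 1.16 to 1.99 CPM in Hampshire. Among high pigs it was at 0.389 to 1.60 CPM and 1.98 to 3.09 CPM. The part of these cells in the breed values of the Mediator genes was not tested.

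**Figure D4:**
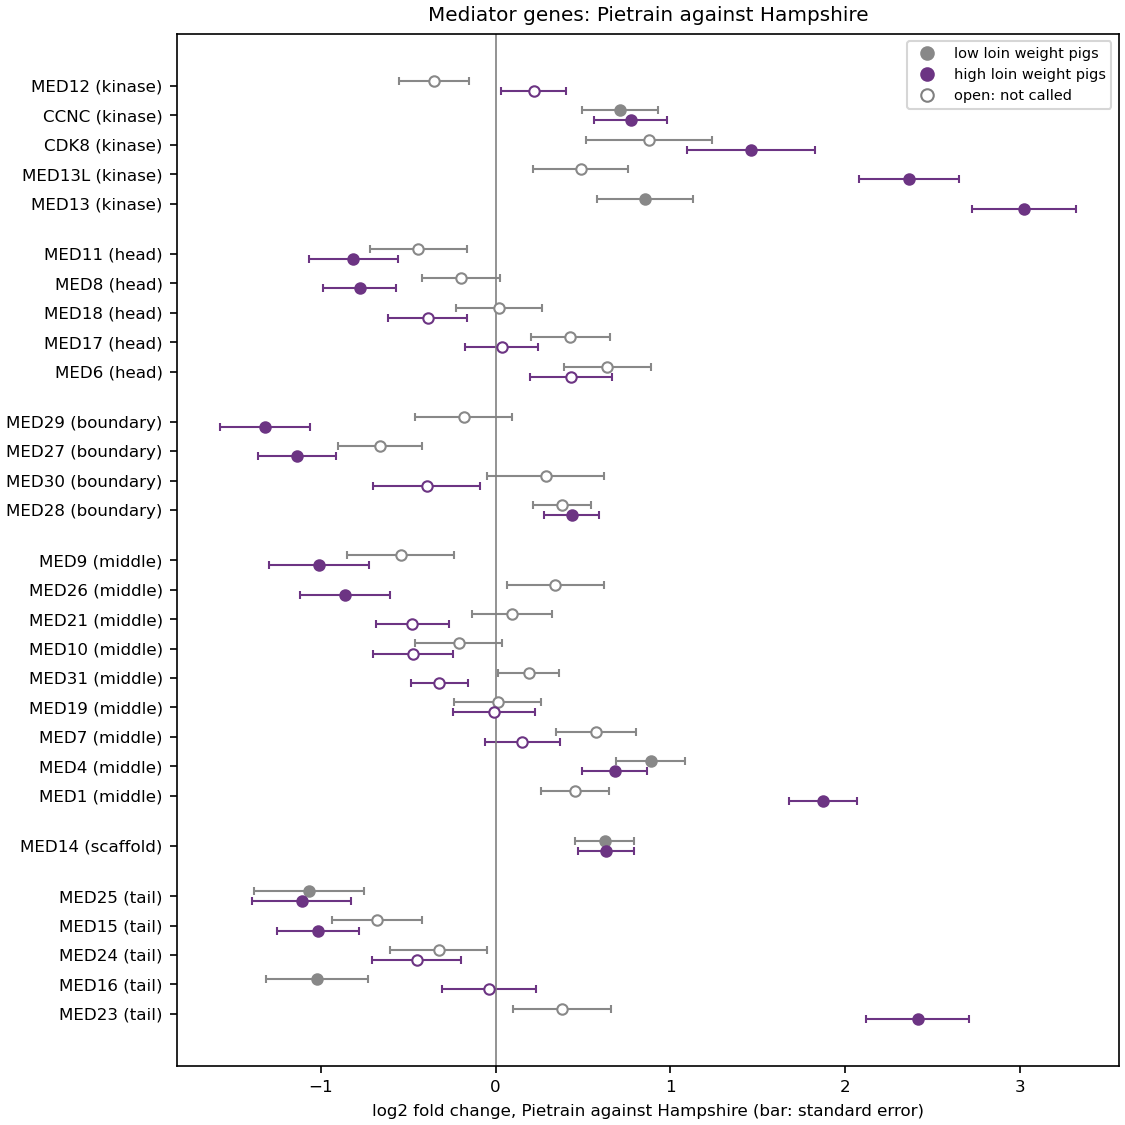
Log2 fold change (Pietrain against Hampshire, with SE as bars) of each of the 29 tested Mediator genes, grouped by module, among pigs with low (grey) and high (purple) weight of loin, with filled points where a gene was called. MED13 (3.02), MED23, MED13L and MED1 lie farthest to the right among the high pigs, and 8 members are called lower there.

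The gene models differ in length, and length moved with the values. Over the 29 tested members, Spearman's rho between the Hampshire log2 fold change and the span of the gene on the chromosome was -0.52, and over 9945 genes of the whole table it was -0.39. In Pietrain the values were -0.08 and -0.09. These describe genes of the same libraries, which are not independent, and carry no test.

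The median log2 fold change of all genes in Hampshire ran from 0.48 in the shortest decile by span to -0.34 in the longest. Of all genes, 31.3% were called higher in the shortest decile, 14.7% in decile 4 and 3.52% in the longest. Called lower in these deciles were 5.92%, 7.36% and 31.1%. Among the members, the 12 spanning under 15000 bases had a median of 0.32, with 1 called higher, and the 17 longer ones a median of -0.05, with 2 called higher and 4 lower. The 4 longest models were MED27 (203536 bases), CDK8 (70817 bases), MED14 (70752 bases) and MED13 (70173 bases), with Hampshire log2 fold changes of 0.30, -0.89, -0.24 and -2.54.

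The trend on length could be removed only for genes with a known span, 9945 tested in Hampshire and 9975 in the breed comparisons. Scaling and p-value adjustment were redone on these genes, so a change of call need not come from the trend alone. With the trend on length removed, the Hampshire values were -2.20 for MED13 (adjusted p = 0.00243), -1.84 for MED13L, -1.67 for MED23 and -1.38 for MED1, and all 4 stayed called. CDK8, CCNC and MED12 were then at -0.56, -0.29 and -0.25, and none of them was called. MED29, a short gene of 5046 bases, was no longer called (0.61, adjusted p = 0.0548). In the breed comparisons, MED13 and MED14 among low pigs (0.64 and 0.41) and MED14, MED26 and MED11 among high pigs (0.12, -0.41 and -0.24) also lost their calls. Calls were gained there for MED7 (0.74), MED15 (-0.85) and MED27 (-0.80) among low pigs and for MED7 (0.61) among high pigs. The identifier named MED18 by the authors and PHACTR4 in the reference table was gained too among high pigs (-0.64). The members called were then 3 higher and 4 lower among low pigs and 9 higher and 7 lower among high pigs, of 29 tested. Over the whole table, 2301 of 9975 genes were called among low pigs and 4816 of 9975 among high pigs in the same fit.

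**Figure D5:**
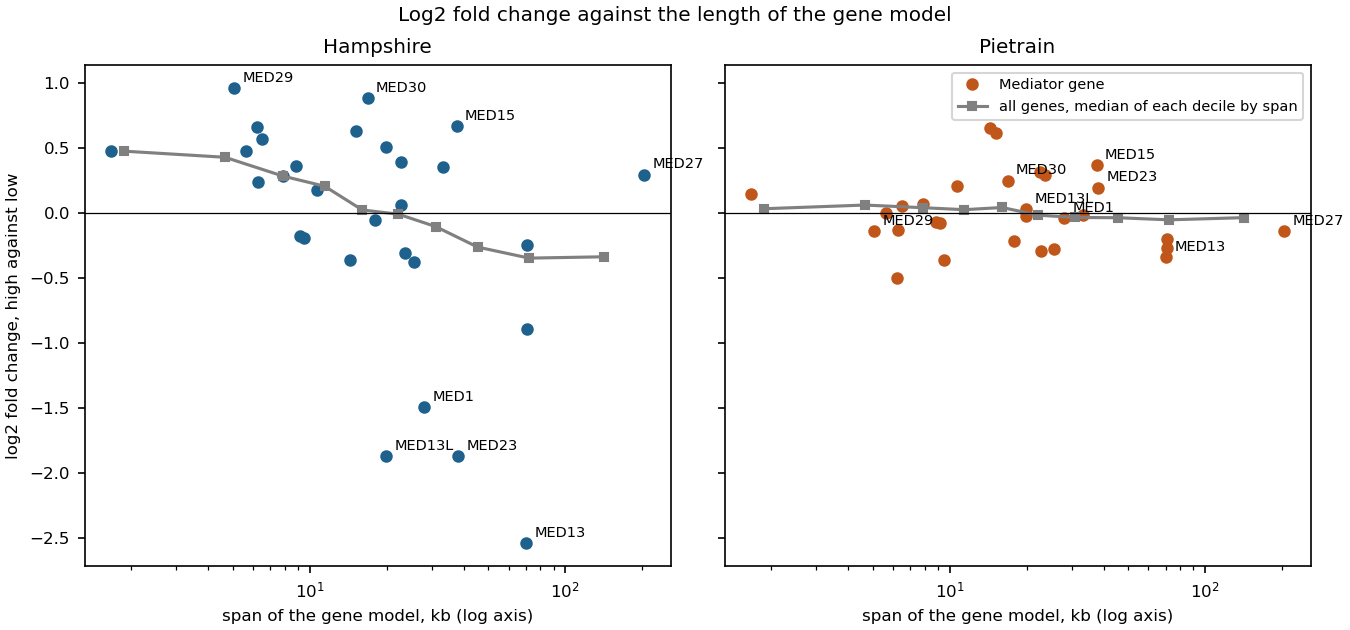
Log2 fold change (high against low weight of loin) of each tested Mediator gene (points) against the span of its gene model in kb on a log axis, in Hampshire and Pietrain, with the median over all genes in each decile by span (grey squares and line). The grey line runs from 0.48 to -0.34 in Hampshire and stays near 0 in Pietrain, and MED13, MED13L, MED23 and MED1 lie far below it in Hampshire.

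The genes that work with Mediator were read from 4 lists. In Hampshire their counts stand beside the 12.0% of all genes called higher and the 14.6% called lower. Of 9 RNA polymerase II subunits matched, 3 rose and 1 fell there. POLR2A, the catalytic subunit, fell (-1.40, SE 0.302, adjusted p = 0.0125), while POLR2G (0.78, SE 0.153, adjusted p = 0.00935), POLR2F (0.90, SE 0.187, adjusted p = 0.0110) and POLR2E (0.65, SE 0.205, adjusted p = 0.0461) rose. Of 26 general transcription factor genes, 3 rose and 4 fell, near the background of 26.6% called in either direction, with a median of -0.07 against 0.03 over all genes. The TFIID subunits TAF9B (-0.75), TAF2 (-0.68) and TAF5 (-1.21) were among those that fell, and TAF10 (0.67), GTF2H5 (0.69) and GTF2A2 (0.59) rose.

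Of 15 tested elongation and chromatin loop genes, 8 fell and 0 rose in Hampshire, where 14.6% of all genes were called lower. That share was 5.92% in the shortest decile by span and 31.1% in the longest. The genes of the 4 lists were not matched for span, and their values with the length trend removed are not given here. Their median was -0.57 and 14 lay below 0, where 48.4% of all genes did. AFF4, the scaffold of the super elongation complex, fell by 2.74 on the log2 scale (SE 0.273, adjusted p = 0.00118). The cohesin subunit SMC1A fell by 1.28 (SE 0.180, adjusted p = 0.00324) and the cohesin loader NIPBL, which binds Mediator, by 1.02 (SE 0.154, adjusted p = 0.00385). The difference between the breeds was called, all lower, for 3 of the 15, beside 4.22% of all genes, AFF4 (-2.63, adjusted p = 0.00438), SMC1A (-1.62, adjusted p = 0.00497) and AFF1 (-2.08, adjusted p = 0.0401).

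Of 20 tested identifiers of factors that act through named subunits, and of genes tied to MED13, 7 fell and 1 rose in Hampshire, beside 14.6% and 12.0% of all genes, with a median of -0.45. The glucocorticoid receptor NR3C1 fell by 1.59 (SE 0.181, adjusted p = 0.00185), PPARGC1A, a coactivator of mitochondrial genes that binds MED1, by 1.74 (SE 0.379, adjusted p = 0.0131), and the estrogen-related receptor ESRRG by 2.42 (SE 0.546, adjusted p = 0.0146). The riser was the identifier named MYH7, slow myosin, in the authors' tables and MYH6 in the reference table (1.17, SE 0.374, adjusted p = 0.0469). In Pietrain 0 genes of the 4 lists were called. GTF2H5 (-0.49) and THRB (0.58) alone had an unadjusted p under 0.05, as had 3.30% of all genes.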

How the data were processed

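RNA from longissimus lumborum of 13 pigs was sequenced by the authors in single-end mode with 4 technical runs. The authors deposited whole-number counts of reads by Ensembl gene and pig, 1 table a breed, without normalization. FastQC, STAR, RSEM, DESeq2 and the build Sscrofa10.2 are named in the submitters' processing notes. Their comparison tables gave symbols and coordinates, and the fold changes, scores and p-values in them were not used. Names they lack came from a table of Ensembl names. The identifier called MED18 by the authors is PHACTR4 there. Of the columns with values per pig, 0 went unused.

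Counts were fitted in R 4.3.3 with edgeR 4.0.16 (glmQLFit and glmQLFTest after TMM and filterByExpr), inside a breed for loin weight and over all 13 pigs for breed and for the difference between breeds. The SE is the log2 fold change divided by the square root of F. Permutation tests used log2(CPM + 0.5). Alternatives were DESeq2 1.42.0, its size factors, other filters, no fold change threshold, other sets of pigs in the fit, a lowess offset on span, and leaving out each pig. All 15 pairs of pigs within a group differed beyond sampling noise. The fits were also run on simulated counts with planted changes and no length trend, and the outcome is not given here.

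The members and lists were chosen with earlier results of these data known. Named were the kinase genes, each member called in a comparison (up to 10 in full), the 3 largest values in each direction, and up to 3 called genes a list and direction. Sequences were not used here.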

Additional observations from a re-analysis of the deposited data

Results flagged for a closer look

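The effect of loin weight differed between the breeds, by the test of that difference over all 13 pigs with edgeR's quasi-likelihood test and Benjamini-Hochberg adjustment, for 4 Mediator genes. As the Hampshire effect minus the Pietrain effect on the log2 scale, the values were -2.17 for MED13, -2.04 for MED23, -1.88 for MED13L and -1.42 for MED1, with adjusted p-values of 0.00793, 0.0110, 0.0139 and 0.00998. Each of these genes was lower in all 3 Hampshire pigs with high weight of loin than in all 3 with low weight, and the Pietrain groups overlapped. For MED13 the call held for the model that bears its symbol. The difference was not called for the neighbouring model listed as MED13 by the study (-0.52, adjusted p = 0.342), nor for both summed (-0.85, adjusted p = 0.114). In the Pietrain high group, which alone holds 4 pigs, no Mediator gene had a single pig far from the rest, and the groups of 3 were not checked for this.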

How the results depend on the processing

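The direction and call of MED13, MED13L, MED23 and MED1 in Hampshire, and of their difference between the breeds, were the same under each alternative run in which they could be computed, except that the difference was not called for MED13 summed with its neighbour (-0.85). Leaving out 1 pig gave between 4 and 7 members called in Hampshire (4 without low pig 3), 0 in Pietrain in each fit, 0 to 8 between the breeds at low weight of loin, 12 to 18 at high weight and 4 to 6 for the difference between breeds. Other alternatives moved none of these counts beyond 1.5 times. The whole table moved too when 1 pig was left out. Genes called in all were 1224 to 3049 in Hampshire (1224 of 12492 tested without low pig 3, against 3256 of 12228 with all pigs) and 0 in Pietrain. Between the breeds they were 109 to 3091 at low weight and 4640 to 6288 at high weight. For the difference between breeds they were 379 to 1052. With 1 pig left out, the median of the members was 0.06 to 0.29 in Hampshire (0.10 with the length trend removed), -0.13 to 0.0062 in Pietrain and 0.07 to 0.30 for the difference between breeds. MED13L in Pietrain changed sign in 3 such fits (-0.0066, -0.020 and -0.16, over a range of -0.16 to 0.24), and CCNC in the difference between breeds in 2 (0.035 and 0.00095, over a range of -0.25 to 0.035). MED30 in Hampshire also lost its call with DESeq2 (adjusted p = 0.0538), with no filter (0.0781), with at least 10 counts in every pig (0.0512) and in 1 fit of all pigs (0.0716), and MED15 in that last fit (0.0775). The cause was not tested. CDK8 rested on 9 to 38 reads a pig. No paired analysis was possible because the groups compared within a breed share no replicate number and numbers across breeds name different pigs.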
